A study of Mus musculus with 24 samples.

Results

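The collagen genes were followed in RNA-seq of mouse striatum, the brain region hit first in Huntington's disease. Every gene whose symbol has the form Col, number, a, number was taken from the 6 deposited tables of gene expression, which gave 44 of the 24340 genes that all tables share. Of these, 43 had at least 0.1 FPKM (fragments per kilobase of transcript, scaled to the mapped fragments of a library, so that levels are corrected for transcript length) in at least 1 group and are described here. They cover 27 collagen types, and 29 of them reached 1 FPKM. The gene left out was Col6a6, whose highest group value was 0.0654 FPKM, while Col10a1, the lowest gene taken in, reached 0.131 FPKM.

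The striata came from 24 mice of the R6/1 colony. R6/1 mice carry a transgene with exon 1 of the human huntingtin gene and an expanded CAG repeat, driven by the human huntingtin promoter, so that they model the N-terminal fragment and not the whole mutant protein. The groups were wild-type mice given vehicle (WT-vehicle, n = 5), R6/1 mice given vehicle (R6/1-vehicle, n = 6), wild-type mice given RGFP109 (WT-RGFP109, n = 6) and R6/1 mice given RGFP109 (R6/1-RGFP109, n = 7). RGFP109 inhibits the histone deacetylases HDAC1 and HDAC3. Mice were 11 to 14 weeks old when intraperitoneal injections of 30 mg/kg began, given 5 times a week over 3 weeks, and the vehicle was the solvent alone. All mice were killed at 14 to 17 weeks, 18 h after their last injection.

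Collagens are secreted proteins, or in a few cases membrane proteins, whose alpha chains wind into a triple helix. Fibrillar collagens build the cables of connective tissue, FACIT collagens decorate the surface of those fibrils, network-forming collagens make the sheets of basement membranes, and type VI collagen forms beaded filaments next to them. In the brain they are found mainly around blood vessels, in the meninges and in the choroid plexus, and several types are also made by neurons, where they have been linked to axon growth and synapse formation.

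Each table gives 1 value per group and none per mouse, so no difference below has a replicate error or a test, and the depth behind each value is unknown. Differences are given as log2 ratios after adding 0.05 FPKM to both values, from the table of that pair of groups. The added amount understates the change of genes with low FPKM. A gene was counted as higher or lower when the log2 ratio was above 0.5 or below -0.5, and the first collagen count of each comparison stands beside the share of all 17264 genes with at least 0.1 FPKM that passed the same limit. These shares are also the background for the marker lists. Levels of the 4 groups come from the 2 tables that compare the genotypes, which were scaled separately. Where 4 values stand without group names, their order is WT-vehicle, R6/1-vehicle, WT-RGFP109, R6/1-RGFP109. The scales of these tables differed by a factor of 0.996.

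The tissue and its neighbours were read from lists of marker genes. All 9 markers of striatal projection neurons were present, at 56.9 (Drd1) to 1149 FPKM (Ppp1r1b) in WT-vehicle. Their summed level was 3331 FPKM in WT-vehicle against 1279 in R6/1-vehicle, and 3212 FPKM in WT-RGFP109 against 1152 in R6/1-RGFP109. For 12 choroid plexus markers the summed levels were 1505, 640, 328 and 43.1 FPKM. In tissue like this, fewer cells of a type and less RNA per cell cannot be told apart.

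Collagen RNA in these striata was dominated by Col6a1, which encodes the alpha 1 chain of type VI collagen (chromosome 10 of mm10, 76708792 to 76726044). Its level was 67.2 FPKM in WT-vehicle against 44.4 in R6/1-vehicle, and 70.4 FPKM in WT-RGFP109 against 51.1 in R6/1-RGFP109. It made up 36.0%, 31.6%, 38.1% and 34.8% of the FPKM summed over the 43 genes, in that order. Both R6/1 groups lay below both wild-type groups in the level as well as in this share. The sum over all 43 genes was 187 FPKM in WT-vehicle against 141 in R6/1-vehicle, and 185 FPKM in WT-RGFP109 against 147 in R6/1-RGFP109. Without Col6a1 it was 120, 96.3, 115 and 95.7 FPKM. Besides Col6a1, the genes with at least 10 FPKM in WT-vehicle were Col9a3, Col4a2, Col6a2 and Col11a2, whereas the median of the 43 genes there was 1.52 FPKM. In every group 14 of the 43 genes stayed under 1 FPKM, and none was listed at 0.

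**Figure D1:**
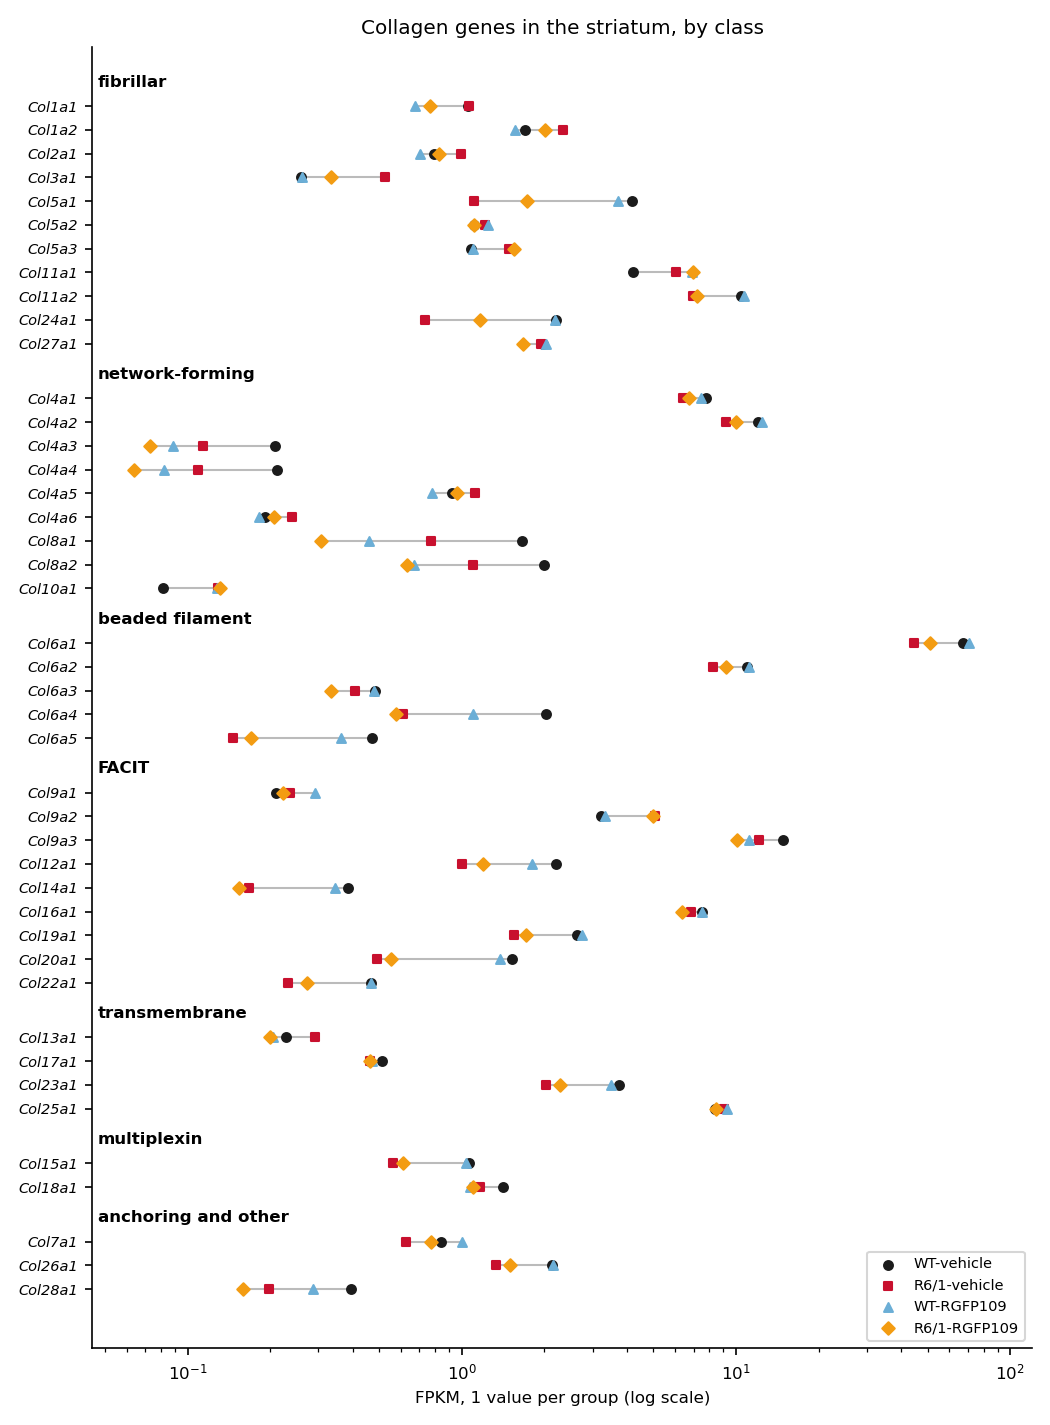
FPKM of the 43 collagen genes on a log scale, 1 symbol per group (WT-vehicle, R6/1-vehicle, WT-RGFP109, R6/1-RGFP109) and 1 row per gene, sorted by class. The grey line joins the lowest and highest group of a gene; Col6a1 lies far to the right at 44.4 to 70.4 FPKM, and the lines are longest for genes such as Col5a1 and Col8a1.

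Which collagen genes differ between R6/1 and wild-type striatum was read first in the mice that received vehicle. Of the 43 genes, 19 were lower in R6/1-vehicle than in WT-vehicle (all genes, 13.3%) and 3 were higher (all genes, 5.86%). The median log2 ratio was -0.39, against -0.017 over all genes. Among the 29 genes with at least 1 FPKM, 13 were lower (all genes at that level, 10.8%) and 2 were higher (4.26%). The lower genes were spread over every class, with 3 of 11 fibrillar, 4 of 9 network-forming, 3 of 5 beaded filament, 5 of 9 FACIT, 1 of 4 transmembrane, 1 of 2 multiplexin and 2 of 3 other genes. With 0.5 FPKM added in place of 0.05, Col3a1, Col4a3, Col4a4, Col11a1, Col14a1, Col22a1 and Col28a1 no longer passed the limit. Genes lower past the limit were frequent among markers of projection neurons (8 of 9), choroid plexus (11 of 12), neocortex (6 of 9) and oligodendrocytes (4 of 6). They were few among markers of endothelial cells (1 of 9), mural cells (1 of 9), astrocytes (0 of 5), microglia (0 of 5) and ependyma (0 of 5). All 5 astrocyte, 5 microglia and 5 ependyma markers were still below 0, with median log2 ratios of -0.35, -0.29 and -0.22. So were 7 of 9 mural and 6 of 9 endothelial markers. The part of these cell types in the collagen differences was not tested.

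The fibrillar class held both the gene with the lowest ratio and 2 of the 3 genes that were higher. Col5a1, whose product starts the assembly of type I and type V fibrils (chromosome 2, 27886425 to 28039510), was at 4.18 FPKM in WT-vehicle against 1.11 in R6/1-vehicle, and 3.72 FPKM in WT-RGFP109 against 1.73 in R6/1-RGFP109. The R6/1-vehicle level was 26.6% of WT-vehicle, a log2 ratio of -1.86. Col24a1, a fibrillar collagen gene on chromosome 3 (145292472 to 145552005), stood at 2.2 FPKM in WT-vehicle against 0.736 in R6/1-vehicle, and 2.18 FPKM in WT-RGFP109 against 1.17 in R6/1-RGFP109, with a log2 ratio of -1.52 between the vehicle groups. For both genes the wild-type groups were close to each other and R6/1-vehicle was the lowest of the 4. Col11a2, a type XI chain known from cartilage, had 10.5, 6.94, 10.7 and 7.21 FPKM in the order of the groups above, and a log2 ratio of -0.59.

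Its partner Col11a1 went the other way, with 4.21 FPKM in WT-vehicle and 6.03, 6.89 and 6.95 FPKM in the other groups in their usual order, so that WT-vehicle stood alone below the other 3 groups (log2 ratio 0.51 between the vehicle groups). Col3a1, the type III collagen of vessel walls, was at 0.260, 0.525, 0.262 and 0.334 FPKM, and its R6/1-vehicle value exceeded WT-vehicle by a log2 ratio of 0.89. For Col1a2 and Col5a3 the log2 ratios were 0.45 and 0.44, short of the limit. Col1a1, the other type I chain, was level between the vehicle groups (1.05 and 1.07 FPKM), as were Col5a2 (1.11 and 1.22 FPKM) and Col27a1 (1.98 and 1.95 FPKM). Markers of meningeal fibroblasts, cells that make types I and III, summed to 45.1 FPKM in WT-vehicle against 39.7 in R6/1-vehicle, and 29.1 FPKM in WT-RGFP109 against 25.8 in R6/1-RGFP109. Igf2 alone was at 18.8 FPKM in WT-vehicle and 15.2 in R6/1-vehicle. Of these 11 markers 2 were higher and 2 lower in R6/1-vehicle past the limit. However, 7 were above 0 and 4 below, with a median log2 ratio of 0.37. The part of these markers in the values of Col1a1, Col1a2 and Col3a1 was not tested.

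FACIT genes had the lowest median of the larger classes, a log2 ratio of -0.75 over 9 genes in the vehicle groups. Col20a1, a little studied FACIT gene (chromosome 2, 180986535 to 181017540), had 1.52 FPKM in WT-vehicle against 0.489 in R6/1-vehicle, and 1.38 FPKM in WT-RGFP109 against 0.550 in R6/1-RGFP109, and a log2 ratio of -1.54. Its R6/1 values were near 0.5 FPKM with either injection and its wild-type values near 1.4 to 1.5 FPKM. Col12a1, which binds type I fibrils, followed with 2.21, 1.00, 1.81 and 1.19 FPKM (log2 ratio -1.10), and its relative Col14a1 with 0.384, 0.167, 0.345 and 0.154 FPKM (log2 ratio -1.0). Col19a1, made by a subset of neurons and known for a role in synapse formation, was at 2.64, 1.55, 2.74 and 1.715 FPKM with a log2 ratio of -0.75. Col22a1, a collagen of tissue junctions, was at 0.466, 0.233, 0.466 and 0.272 FPKM. In all 5 of these genes both R6/1 groups lay below both wild-type groups.

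The exception in this class was Col9a2, a chain of type IX collagen on chromosome 4 (121039566 to 121055325), with 3.21 FPKM in WT-vehicle against 5.085 in R6/1-vehicle, and 3.34 FPKM in WT-RGFP109 against 5.0 in R6/1-RGFP109. Both R6/1 values exceeded both wild-type values, by log2 ratios of 0.66 with vehicle and 0.57 with RGFP109. Col9a3, the type IX chain with the highest level, had 14.8, 12.1, 11.2 and 10.1 FPKM, and the log2 ratio of the vehicle groups was -0.29. The interval that the tables give for Col9a3 also spans Tcfl5, so its value may hold reads of that gene. Col16a1 differed little, with 7.54, 6.85, 7.53 and 6.36 FPKM.

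Type VI genes were all below 0 in the genotype comparison. Col6a1, at the levels given above, had a log2 ratio of -0.60. Col6a2, its obligate partner chain, was at 10.9, 8.24, 11.2 and 9.19 FPKM, with a log2 ratio of -0.41 that did not reach the limit. Col6a4 and Col6a5 encode chains related to alpha 3 and lie 29674 bases apart on chromosome 9. Col6a4 had 2.03 FPKM in WT-vehicle against 0.612 in R6/1-vehicle, and 1.10 FPKM in WT-RGFP109 against 0.574 in R6/1-RGFP109 (log2 ratio of the vehicle groups -1.65). For Col6a5 the values were 0.472, 0.147, 0.362 and 0.170 FPKM (log2 ratio -1.41). Both R6/1 groups were low in either gene, and WT-vehicle was the highest.

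Among the network-forming genes, the basement membrane pair Col4a1 and Col4a2, which encode the type IV collagen of every vessel, stayed within the limit. Col4a1 was at 7.75, 6.4, 7.46 and 6.75 FPKM and Col4a2 at 11.98, 9.165, 12.5 and 9.96 FPKM, with log2 ratios of -0.27 and -0.39 in the vehicle groups. The genes past the limit were Col4a3 (-0.65), Col4a4 (-0.72), Col8a1 (-1.05) and Col8a2 (-0.83), whose values are given with the RGFP109 comparisons. Col4a5, the type IV chain that partners with Col4a3 and Col4a4 in the kidney, was at 0.925 FPKM in WT-vehicle and 1.12 in R6/1-vehicle.

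In the remaining classes Col23a1, a transmembrane collagen, had 3.74, 2.03, 3.51 and 2.27 FPKM and a log2 ratio of -0.86. Col25a1, a neuronal transmembrane collagen first isolated from amyloid plaques, had the highest level of this class, with 8.36, 9.0, 9.27 and 8.43 FPKM. Col15a1, a proteoglycan-type collagen of the basement membrane zone, was at 1.06, 0.560, 1.04 and 0.612 FPKM (log2 ratio -0.86), while its relative Col18a1, the source of endostatin, was at 1.42, 1.17, 1.08 and 1.10 FPKM (log2 ratio -0.27). Col26a1 had 2.14, 1.34, 2.16 and 1.5 FPKM (log2 ratio -0.66) and Col28a1 0.395, 0.198, 0.286 and 0.159 FPKM (log2 ratio -0.85). Col7a1, which forms the anchoring fibrils of skin, was at 0.842, 0.626, 1.00 and 0.772 FPKM (log2 ratio -0.40). The 7 genes not given one by one (Col2a1, Col4a6, Col6a3, Col9a1, Col10a1, Col13a1 and Col17a1) stayed under 1 FPKM and within the limit in all 4 comparisons. The interval given for Col10a1 also spans Nt5dc1.

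The genotypes were compared again in the mice that received RGFP109, which share no animals with the vehicle groups. Here 15 of 43 collagen genes were lower in R6/1-RGFP109 than in WT-RGFP109 (all genes, 11.7%) and 1 was higher (all genes, 5.53%), with a median log2 ratio of -0.28 against 0 over all genes. Among the 29 genes with at least 1 FPKM, 11 were lower (all genes at that level, 9.4%) and 1 was higher (3.84%). All 15 were among the 19 that were lower with vehicle, which is 78.9% of the first list and 100% of the second. Over all genes, 1334 were lower in both comparisons (7.73% of genes), 58.0% of the first list and 66.0% of the second. The 4 genes lower with vehicle only by this limit were Col4a3 (-0.17 with RGFP109), Col4a4 (-0.21), Col6a1 (-0.46) and Col8a2 (-0.07), and all 4 remained below 0. Col9a2 was the only gene higher in both (all genes, 2.35%).

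Across the 43 genes the log2 ratios of the 2 genotype comparisons had a Pearson r of 0.897 and a Spearman rho of 0.892, against a rho of 0.674 over all genes. Genes are not independent replicates, and each point shares its libraries with every other. In all 15 genes that were lower with RGFP109 the ratio was lower still with vehicle, with medians of -0.68 and -1.0. Of all 2021 genes lower with RGFP109, this held for 38.9%. When genes lower with vehicle were taken instead, the ratio with vehicle was the lower one in all 19 collagen genes. It was the lower one in 76.2% of all 2300 genes taken in that way. Col20a1 (-1.25), Col5a1 (-1.08), Col14a1 (-0.95), Col6a5 (-0.90), Col6a4 (-0.89) and Col24a1 (-0.87) had the lowest ratios with RGFP109. The marker list of projection neurons again had 8 of 9 genes lower, that of choroid plexus 9 of 12, that of neocortex 1 of 9 and that of oligodendrocytes 0 of 6, while 2 of 5 ependyma markers were higher. Their part in these collagen differences was not tested.

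**Figure D2:**
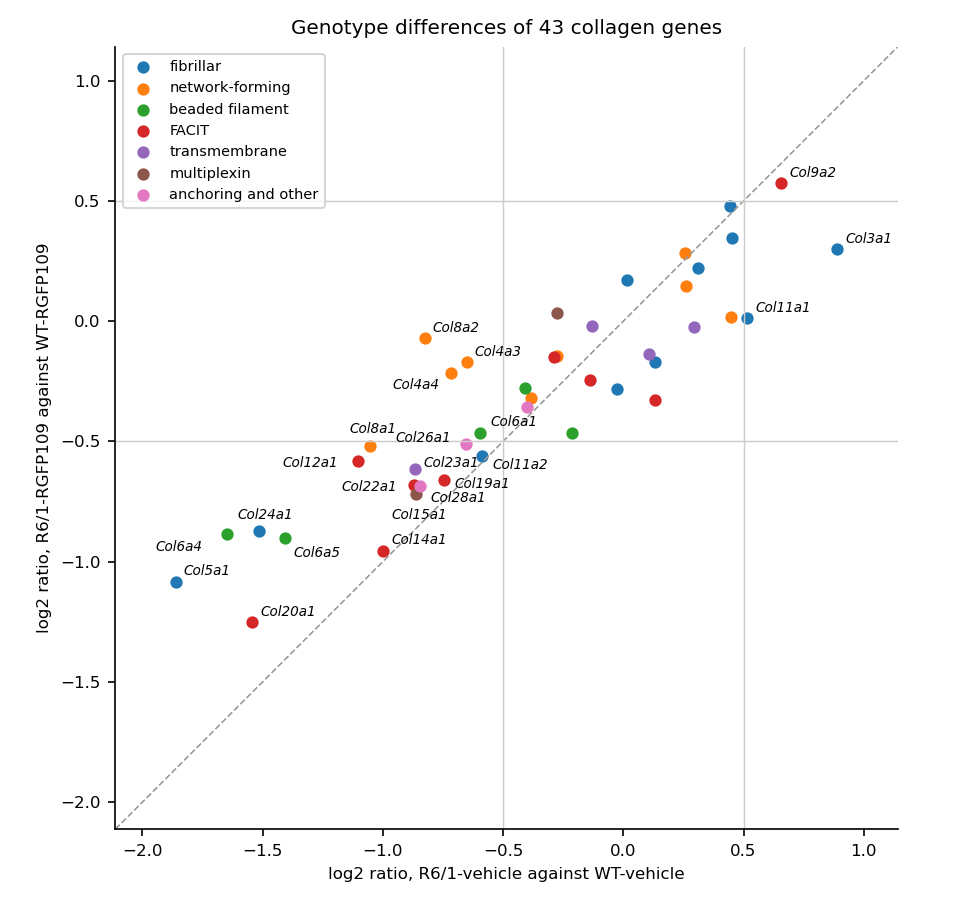
Log2 ratios of 43 collagen genes, R6/1-vehicle against WT-vehicle on the horizontal axis and R6/1-RGFP109 against WT-RGFP109 on the vertical axis, 1 point per gene coloured by class. Grey lines mark 0.5 and -0.5 and the dashed line marks equality; the 15 genes past -0.5 on both axes, from Col5a1 to Col26a1, all lie above the dashed line, and Col9a2 is alone past 0.5 on both.

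RGFP109 was set against vehicle within each genotype, and here few collagen genes passed the limit. In WT mice 6 of 43 were lower with RGFP109 (all genes, 4.94%) and 1 was higher (all genes, 3.29%). In R6/1 mice 3 were lower (all genes, 3.31%) and 2 were higher (all genes, 2.77%). The median log2 ratios were -0.06 and -0.07. At 1 FPKM or more, 4 of 29 were lower (2.47% of all genes at that level) and 1 higher (1.89%) in WT, and 2 were lower (1.75%) and 2 higher (1.68%) in R6/1 mice. Col8a1 and Col8a2 were lower in both genotypes (all genes, 1.14%), and no collagen gene was higher in both (all genes, 0.481%).

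Col8a1 and Col8a2 encode the chains of type VIII collagen, a short-chain network collagen known from the cornea and from vessel walls. Col8a1 (chromosome 16, 57624256 to 57754737) was at 1.65 FPKM in WT-vehicle against 0.770 in R6/1-vehicle, and 0.460 FPKM in WT-RGFP109 against 0.306 in R6/1-RGFP109. The log2 ratio for RGFP109 was -1.74 in WT and -1.22 in R6/1 mice. Col8a2 (chromosome 4, 126286794 to 126314330) was at 1.99, 1.10, 0.668 and 0.633 FPKM in the same order, with log2 ratios for RGFP109 of -1.51 in WT and -0.77 in R6/1. In both genes WT-vehicle was highest, R6/1-vehicle next, and the RGFP109 groups lowest. Set directly beside WT-vehicle, R6/1-RGFP109 held 18.4% of the Col8a1 level and 31.7% of the Col8a2 level. In that comparison 18 of 43 collagen genes were lower (all genes, 13.7%) and 2 were higher (all genes, 5.53%). It shares its groups with the comparisons above.

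The same order of groups was seen in Col4a3 and Col4a4, type IV chains of the kidney filter whose loss causes Alport syndrome, at far lower levels. Col4a3 was at 0.208, 0.114, 0.0886 and 0.0732 FPKM, and Col4a4 at 0.212, 0.109, 0.0823 and 0.0640 FPKM. In WT mice the log2 ratios for RGFP109 were -0.89 and -0.98, and in R6/1 mice -0.43 and -0.50, short of the limit. With 0.5 FPKM added, neither gene passed it in any comparison. Col9a3, at far higher levels, had the same order, at 81.8%, 75.4% and 67.9% of WT-vehicle in the other groups. Its log2 ratios for RGFP109 were -0.41 in WT and -0.28 in R6/1 mice.

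All 12 choroid plexus markers were lower with RGFP109 in WT and in R6/1 mice. Their levels descended from WT-vehicle over R6/1-vehicle and WT-RGFP109 to R6/1-RGFP109, except for Aqp1, where WT-RGFP109 (1.80 FPKM) lay above R6/1-vehicle (1.27 FPKM). Without Ttr, the marker of by far the highest level, the sum of the list was 61.8 FPKM in WT-vehicle against 34.2 in R6/1-vehicle, and 21.9 FPKM in WT-RGFP109 against 12.5 in R6/1-RGFP109. Relative to WT-vehicle these sums were 55.4%, 35.4% and 20.3%, while Col8a1 was at 46.6%, 27.8% and 18.5%, Col8a2 at 55.3%, 33.5% and 31.8%, Col4a3 at 54.9%, 42.6% and 35.2%, and Col4a4 at 51.6%, 38.9% and 30.3%. No marker of the list was at 0 in any group. Ependyma markers, from the lining of the same ventricle, were lower with RGFP109 in WT mice (5 of 5) and within the limit in R6/1 mice (0 of 5). The part of these tissues in the levels of Col4a3, Col4a4, Col8a1 and Col8a2 was not tested.

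**Figure D3:**
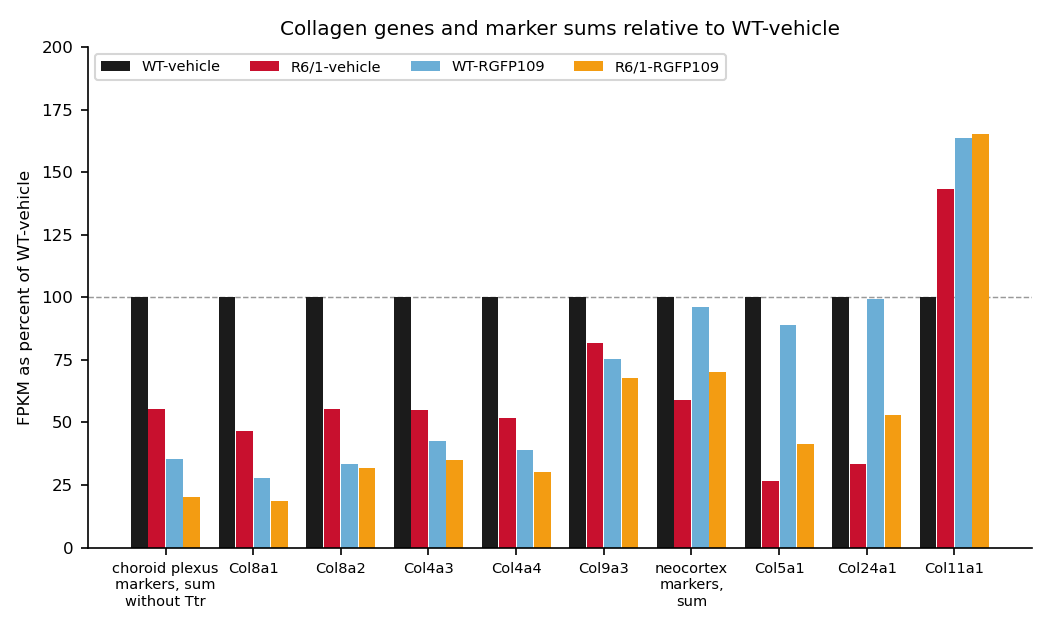
FPKM in each group as percent of WT-vehicle for 8 collagen genes and the summed choroid plexus markers (11 genes, without Ttr) and neocortex markers (9 genes), 1 bar per group and without error bars because each group has 1 value. Col8a1, Col8a2, Col4a3 and Col4a4 step down from R6/1-vehicle to WT-RGFP109 and R6/1-RGFP109, the order of the choroid plexus sum (55.4%, 35.4%, 20.3%). The last step is small for Col8a2 (33.5% to 31.8%) and is 42.6% to 35.2% for Col4a3. Col9a3 steps down in the same order over a smaller range (81.8%, 75.4%, 67.9%), whereas Col5a1 and Col24a1 are low in the R6/1 groups only.

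The genes past the limit for RGFP109 in one genotype alone were fibrillar with 3 exceptions. In R6/1 mice Col5a1 and Col24a1 were higher with RGFP109, at 154% and 158% of R6/1-vehicle (log2 ratios 0.61 and 0.63), while in WT mice the log2 ratios were -0.17 and -0.02. These R6/1-RGFP109 levels were still 41.2% and 52.9% of WT-vehicle. The R6/1-vehicle group enters both this comparison and the genotype comparison with vehicle, so these values are not independent of each other. Neocortex markers summed to 427 FPKM in WT-vehicle against 252 in R6/1-vehicle, and 410 FPKM in WT-RGFP109 against 300 in R6/1-RGFP109. Slc17a7 alone made up 297, 161, 278 and 201 FPKM of these sums. Of the 9 markers, 3 were higher and 0 lower with RGFP109 in R6/1 mice, while 8 were above 0 and 1 below. Their part in the Col5a1 and Col24a1 values was not tested. Neither gene passed the limit with 0.5 FPKM added (0.46 and 0.43).

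Col3a1 was lower with RGFP109 in R6/1 mice (log2 ratio -0.59) and level in WT mice (0.00), and 6 of 11 meningeal markers were lower with RGFP109 in R6/1 and 3 of 11 in WT. In WT mice Col11a1 was higher with RGFP109 (log2 ratio 0.70, and 0.20 in R6/1), and Col1a1 (-0.61) and Col6a4 (-0.85) were lower. Col1a1 was at 1.05 and 1.07 FPKM in the vehicle groups and at 0.676 and 0.768 FPKM in the RGFP109 groups. The exceptions among classes were thus Col6a4 and the type IV pair. The largest gaps between the RGFP109 effects of the genotypes, in R6/1 minus WT, were 0.78 for Col5a1, 0.76 for Col6a4, 0.74 for Col8a2 and 0.64 for Col24a1, and -0.59 for Col3a1. With 1 value per group, these gaps could not be tested.

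**Figure D4:**
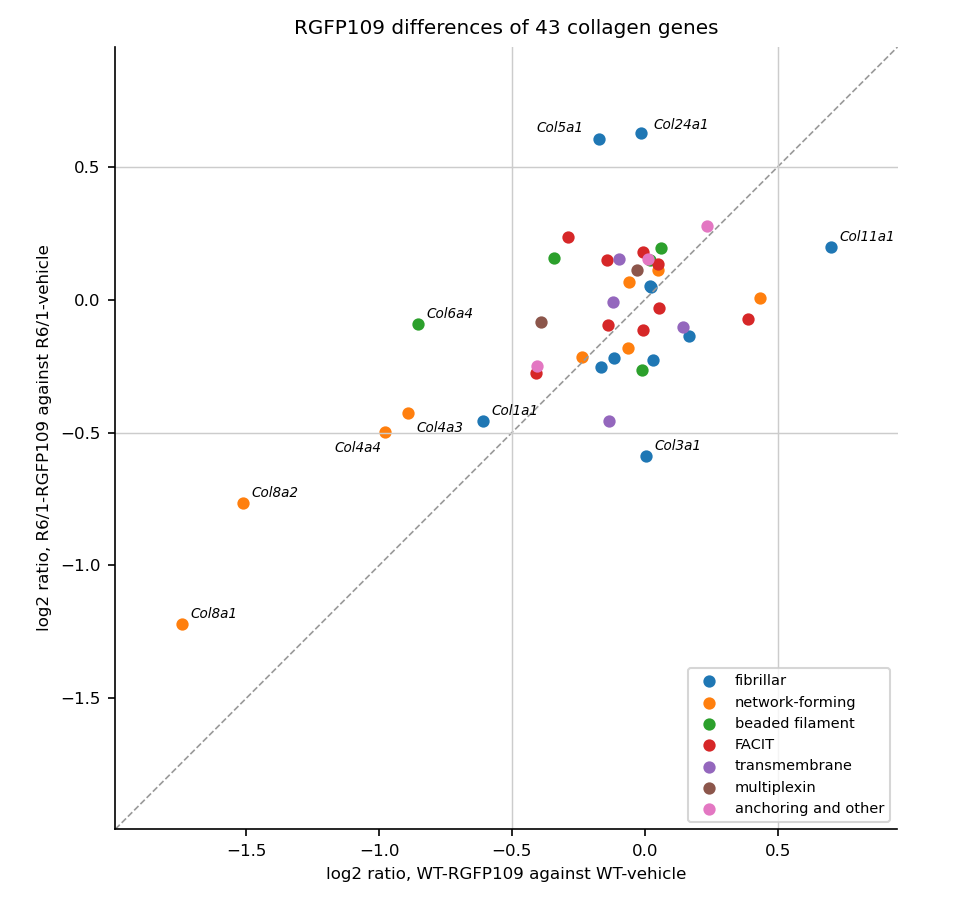
Log2 ratios of RGFP109 against vehicle for 43 collagen genes, in WT mice on the horizontal axis and in R6/1 mice on the vertical axis, 1 point per gene coloured by class. Grey lines mark 0.5 and -0.5 and the dashed line marks equality; most genes lie near 0, Col8a1 and Col8a2 are past -0.5 on both axes, and Col5a1 and Col24a1 are past 0.5 in R6/1 mice.

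Because several collagen molecules are built from chains of different genes, levels were also compared between genes of a type, as ratios of FPKM within a group. Col5a1 over Col5a2 was 3.78 in WT-vehicle against 0.915 in R6/1-vehicle, and 2.97 in WT-RGFP109 against 1.56 in R6/1-RGFP109, so Col5a1 exceeded Col5a2 in every group other than R6/1-vehicle. Col11a2 over Col11a1 was 2.48, 1.15, 1.55 and 1.04, and Col9a3 over Col9a2 was 4.63, 2.39, 3.35 and 2.01. In these 3 types both R6/1 groups had the lower ratios. The ratios of Col6a1 over Col6a2 (6.14, 5.39, 6.31 and 5.56) and of Col4a2 over Col4a1 (1.55, 1.43, 1.67 and 1.48) spread less than those of these 3 types. Col1a2 over Col1a1 was lowest in WT-vehicle (1.61) and highest in R6/1-RGFP109 (2.61). Col6a3, the chain that completes the classical type VI molecule, was scarce, and Col6a1 exceeded it by 139, 108, 147 and 153 times. RNA levels do not give the composition of the protein.

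**Figure D5:**
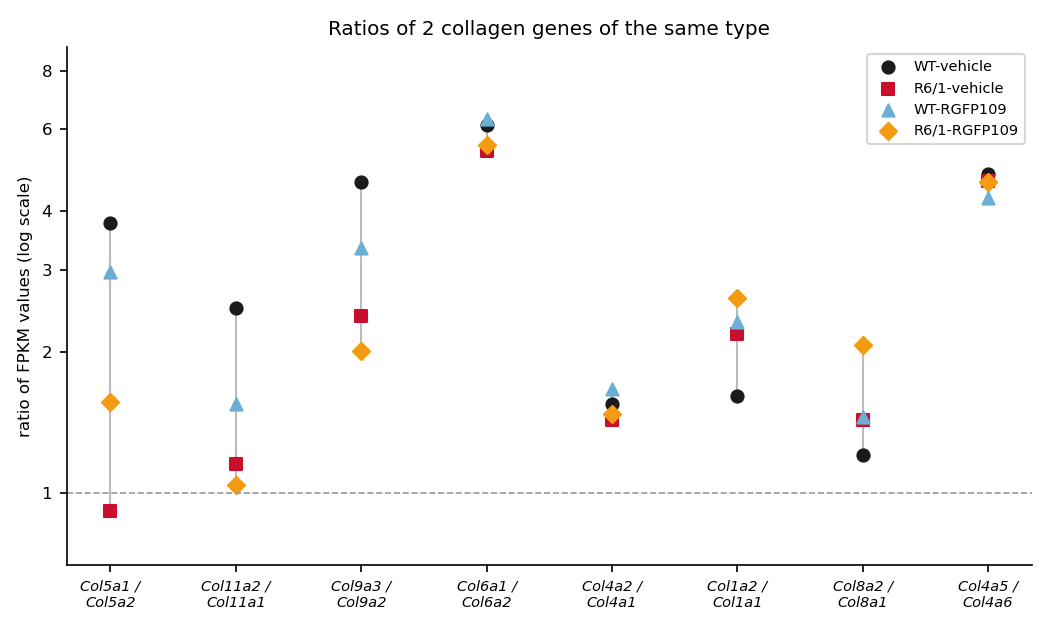
Ratio of the FPKM values of 2 genes of the same collagen type on a log scale, 1 symbol per group, for 8 pairs; the dashed line marks equal levels. The ratios of Col5a1 to Col5a2, Col11a2 to Col11a1 and Col9a3 to Col9a2 spread widely and are lower in both R6/1 groups, whereas Col6a1 to Col6a2 (5.39 to 6.31) and Col4a5 to Col4a6 (4.28 to 4.81) stay close.

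Genes that make, bind or degrade collagen were read from lists of genes. Of 29 collagen processing genes, 9 (31.0%; all genes, 13.3%) were lower and 1 (3.45%; all genes, 5.86%) was higher in R6/1-vehicle than in WT-vehicle, with a median log2 ratio of -0.27. Adamts2, which trims the N-terminal propeptide of procollagen, was at 2.58, 1.30, 2.24 and 1.35 FPKM (log2 ratio -0.96). Loxl1, a crosslinking enzyme, was at 1.17, 0.671, 0.948 and 0.699 FPKM (log2 ratio -0.76). P4ha3, a catalytic subunit of prolyl 4-hydroxylase, was the higher gene, at 1.90, 3.75, 2.27 and 3.31 FPKM (log2 ratio 0.97). Both R6/1 groups lay below both wild-type groups for Adamts2 and Loxl1 and above them for P4ha3.

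In the other lists the shares of lower genes were 10% of the receptors, 18.2% of the degradation genes, 23.5% of the basement membrane partners and 12.5% of the proteoglycans, beside 13.3% of all genes. Of 10 collagen receptors 1 was lower and none higher. This was Itga11, a collagen-binding integrin chain at 0.847, 0.439, 0.954 and 0.432 FPKM (log2 ratio -0.88), named after its values were seen because it stayed under 1 FPKM. The discoidin domain receptors Ddr1 (-0.24) and Ddr2 (0.18) and the uptake receptor Mrc2 (0.21) stayed within the limit. Of 11 degradation genes 2 were lower, Mmp17, a membrane-anchored metalloproteinase, with 72.9, 47.4, 68.8 and 48.8 FPKM (log2 ratio -0.62) and the collagen-cleaving protease Ctsk with 2.34, 1.61, 2.2 and 1.77 FPKM (log2 ratio -0.53). Mmp14, another membrane-anchored metalloproteinase, was just short of the limit, with a log2 ratio of -0.50. Of 17 basement membrane partners 4 were lower and none higher, namely the laminin chains Lamb3 (-0.62) and Lama5 (-0.53), the nidogen Nid2 (-0.54) and the laminin chain Lama3 (-0.73), which stayed under 1 FPKM and was likewise named after its values were seen, while the median of the list was 0.04. Of 8 leucine-rich proteoglycans, small proteins that coat collagen fibrils, 2 (25%; all genes, 5.86%) were higher and 1 lower. Fmod was at 1.74, 3.68, 1.51 and 2.38 FPKM (log2 ratio 1.06), and Dcn at 7.72, 5.415, 4.19 and 4.12 FPKM (log2 ratio -0.51), while Ogn had a log2 ratio of 0.43. The other higher gene, Omd, was at 0.151, 0.316, 0.142 and 0.215 FPKM (log2 ratio 0.86) and was also named after its values were seen. Dcn and Ogn are also on the list of meningeal markers.

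The genes whose pattern over the 4 groups was most like that of Col5a1 were Wnt4, Robo3, 2310075C17Rik, Vip and Myl4. Likeness was the sum of absolute differences between log2 levels centred on their mean, over 12991 genes with at least 1 FPKM in every group. The sums were 0.333 for Wnt4, 0.358 for Robo3, 0.469 for 2310075C17Rik, 0.508 for Vip and 0.533 for Myl4. Wnt4, a secreted signalling protein, was at 3.92 FPKM in WT-vehicle against 1.19 in R6/1-vehicle, and 3.31 FPKM in WT-RGFP109 against 1.70 in R6/1-RGFP109, and Robo3, an axon guidance receptor, at 4.81, 1.09, 3.73 and 1.64 FPKM. With 4 points per gene, likeness of this kind is a description only.

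Several collagen genes are neighbours. Col4a4 and Col4a3 are transcribed in opposite directions on chromosome 1, with 71 bases between the intervals given for them. In RefSeq, Col4a4 ends at 82587034, past the start of Col4a3 at 82586921, so the genes overlap there. Their ratios were alike in each comparison (for RGFP109 in WT, -0.98 and -0.89). Col4a1 and Col4a2 have the same arrangement with 2 bases between the intervals of the tables. In contrast, Col3a1 (0.89) and Col5a2 (0.13), which are 24624 bases apart on chromosome 1, and Col9a1 (0.13) and Col19a1 (-0.75), 4944 bases apart, differed in the vehicle comparison.

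The sequences before the starts of the intervals given for 6 genes are shown because the values of these genes moved in pairs. Col5a1 and Col24a1 were lower by genotype and higher with RGFP109 in R6/1 mice. Col8a1 with Col8a2 and Col4a3 with Col4a4 were lower with RGFP109 in WT mice. The sequences are from RefSeq on GRCm38.p6 (mm10), read 5′ to 3′ on the strand of the gene, 150 bases each or the whole 71 bases. For the interval between Col4a4 and Col4a3 this is the plus strand, the strand of Col4a3. Capitals mark the GC box GGGCGG or its reverse complement CCGCCC, a letter match and not a measured site. Col5a1 is chr2:27886275-27886424 (plus strand), Col24a1 chr3:145292322-145292471 (plus), Col8a1 chr16:57754738-57754887 (minus), Col8a2 chr4:126286643-126286792 (plus), and the interval chr1:82586850-82586920. The RefSeq gene of Col5a1 starts at 27886381, inside its stretch. The RefSeq gene of Col4a4 ends at 82587034, so the interval lies wholly within that gene.
Col5a1: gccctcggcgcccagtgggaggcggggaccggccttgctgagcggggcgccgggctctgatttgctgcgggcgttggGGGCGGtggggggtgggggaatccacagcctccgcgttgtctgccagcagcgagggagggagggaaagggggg
Col24a1: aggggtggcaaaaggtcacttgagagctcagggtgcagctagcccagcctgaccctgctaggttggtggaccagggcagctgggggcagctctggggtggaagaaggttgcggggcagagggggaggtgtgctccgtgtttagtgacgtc
Col8a1: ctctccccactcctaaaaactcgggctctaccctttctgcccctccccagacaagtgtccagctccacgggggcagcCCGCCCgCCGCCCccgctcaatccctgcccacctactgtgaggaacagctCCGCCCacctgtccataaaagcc
Col8a2: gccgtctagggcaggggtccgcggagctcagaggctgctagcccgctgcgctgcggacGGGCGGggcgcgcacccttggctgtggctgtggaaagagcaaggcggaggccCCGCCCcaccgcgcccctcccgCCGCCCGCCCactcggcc
Col4a4 to Col4a3: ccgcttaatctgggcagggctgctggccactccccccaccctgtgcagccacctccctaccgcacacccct

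The Col8a2 stretch held 4 matches, 2 of them overlapping, Col8a1 held 3, Col5a1 held 1, and Col24a1 and the interval between Col4a4 and Col4a3 held none. GC content was 74.7% for Col5a1, 63.3% for Col24a1, 64.7% for Col8a1, 78.0% for Col8a2 and 69.0% for the interval. In the RefSeq promoter set, 34 of the 43 genes had a promoter, with 37 windows in all. In the 250 bases before the start alone, on either strand, GGGCGG was found in 21 of these 37 windows (56.8%) and in 32.7% of all 32851 windows. CCAAT was found in 13 (35.1%, all windows 33.8%) and TATAAA in 5 (13.5%, all windows 12.4%). These shares describe letters only, and nothing was drawn from them about a factor.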

How the data were processed

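The members and gene lists were chosen with earlier results of these data known. According to the methods and labels, the authors prepared TruSeq libraries in 2 pools, aligned single-end reads with STAR 2.5.0b to the RefSeq annotation of mm10, and derived FPKM with Cufflinks 2.2.1. The strand used in counting is not given in the sources used here. The authors deposited 6 Cuffdiff tables with 1 FPKM value per group, pooled over its mice and scaled within the pair of groups, so a group's values differ between tables by a common factor (median ratios 0.962 to 1.00). The tables also hold the authors' fold changes, test statistics, p-values and q-values, which were not used. The tables label R6/1 groups MUT.

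Tables were restricted to 24340 shared genes. Log2 ratios were taken within the table of each pair after adding 0.05 FPKM, for genes with at least 0.1 FPKM in any group, and counted past 0.5. No test was run, because each group has 1 value, and read depth and intervals are unknown. The counting code was checked on made-up fold changes without noise, which gives no measure of the error of the counts. Genes were named if they reached 1 FPKM or passed 0.5 in any of 4 comparisons, plus, per list of collagen-handling genes, the 3 with the largest absolute ratios between the vehicle groups among those with at least 1 FPKM in any group, and the 5 genes most like Col5a1. Of the lists, 6 older symbols duplicate current names and were not found. Protein sequences were not analysed here. Alternatives covered the added amount, the minimum FPKM, the limit, centring and values from other tables. Python 3.11.15, numpy 2.4.6, pandas 2.3.3 and matplotlib 3.10.9 were used.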

Additional observations from a re-analysis of the deposited data

How the results depend on the processing

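The limits of 1 or 0.25 in place of 0.5 and the amount added to FPKM moved the counts most. The counts at these settings stand without the share of all genes at the same setting. They therefore cannot show whether collagen genes differ there from genes at large. At a limit of 1, the collagen genes lower and higher in R6/1 were 8 and 0 with vehicle and 2 and 0 with RGFP109, and those lower and higher with RGFP109 were 1 and 0 in R6/1 and 2 and 0 in WT. At 0.25, the higher genes in R6/1 were 10 with vehicle and 5 with RGFP109, the lower genes with RGFP109 were 10 in R6/1 and 11 in WT, and 3 were higher in WT. With 0.5 FPKM added, 1 gene was higher in R6/1-vehicle and the median log2 ratio there was -0.25, 7 genes were lower in R6/1-RGFP109 than in WT-RGFP109, 0 were higher with RGFP109 in R6/1, and 3 were lower with RGFP109 in WT. With nothing added, 6 genes were lower with RGFP109 in R6/1 and 2 higher in WT. With a minimum of 1 FPKM the median log2 ratio for RGFP109 in R6/1 was 0.053 in place of -0.07, a change of sign. For the 36 genes given one by one, 836 single values were followed under the alternatives. Of these values, 813 kept their side of the limit and 21 no longer passed it (all with 0.5 FPKM added). Col4a3 and Col4a4 for RGFP109 in R6/1, with nothing added, were the 2 that newly passed it. Of the values past the limit, 0 changed direction, and direction was not checked for values within it. The 7 other genes were not followed in this way. Among these 7, some also passed the limit with nothing added. In R6/1-RGFP109, Col13a1 was at 68.3% of R6/1-vehicle and Col6a3 at 69.7% of WT-RGFP109. Col10a1 was at 159% of WT-vehicle in R6/1-vehicle and at 157% in WT-RGFP109. No paired analysis was possible because the tables hold 1 pooled value per group, and for the same reason no mouse could be left out. Depth per library is unknown, so genes under 1 FPKM carry an unknown counting error.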
